A study of Mus musculus with 3 samples.

Results

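The genes encoding chemokine ligands and chemokine receptors were examined in cultured mouse peritoneal macrophages exposed to intralipid with ANGPTL4, to intralipid alone, or to PBS. The genes were chosen by symbol alone: every Ccl, Cxcl, Cx3cl, Xcl, Ccr, Cxcr, Cx3cr, Xcr or Ackr symbol with a number, and Ccrl2, on probe sets that GEO's platform annotation assigns to 1 gene, which gave 56 of 19938 genes. They comprised 34 ligands (19 CC, 13 CXC and 2 others) and 22 receptors (17 conventional and 5 atypical). An expression floor was set on each array at the median over its named probe sets, which was 4.97 on the log2 scale for intralipid plus ANGPTL4, 4.97 for intralipid and 4.98 for PBS. Of the 56 genes, 22 (39.3%) reached it on 1 or more arrays, 16 ligands and 6 receptors, against 10090 of all genes (50.6%).

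Chemokines are small secreted proteins that direct the migration of leukocytes. They are grouped by the spacing of their first cysteines into CC, CXC, CX3C and XC types and act through G protein-coupled receptors named after these types. Atypical receptors bind ligands without coupling to G proteins and shape the ligands' distribution. Macrophages are a major source of inflammatory chemokines, among them the mouse CXCR2 ligands, which recruit neutrophils, and ligands of CCR1 and CCR2, which recruit monocytes and other leukocytes.

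All cells came from male Angptl4-/- mice (C57Bl/6J), so the PBS cultures lacked the gene as well, and no wild-type array was used here. They were washed from the peritoneum 3 days after 4% thioglycollate, an irritant that elicits macrophages, and the adherent cells were cultured for 2 days. One group received intralipid, a triglyceride emulsion (0.5 mM triglyceride, 6 h), after 1.5 h with 2.5 µg/mL recombinant mouse ANGPTL4, an inhibitor of lipoprotein lipase. The second received intralipid alone and the third PBS for 6 h. Whether these groups had a mock pre-incubation is not given in the sources used here.

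Each group is 1 Affymetrix array with RNA pooled from 3 samples, so no test was possible, no p-value is given, and "higher" and "lower" describe these 3 arrays. The values are deposited log2 expression values, and a fold is their difference taken back to the linear scale. A gene is counted as at least 2-fold apart where the higher of both arrays reached the floor. Macrophage markers reached the floor for 10 of 10 genes, with summed linear levels of 25299 for intralipid plus ANGPTL4, 24455 for intralipid and 23547 for PBS. Of the 10, Lyz2 and Cd68 had the highest values and were within 1.02-fold on all arrays, but others moved: Cd14 was 4.29-fold higher with intralipid than with PBS (with ANGPTL4, 1.26 above PBS on the log2 scale), Msr1 was 2.30-fold higher with ANGPTL4 than on the intralipid array, and Fcgr1 was 2.01-fold lower with ANGPTL4 than with PBS. The part of these markers in the chemokine values was not tested. Markers of B cells, of T and NK cells and of mast cells had 0 genes at the floor. Neutrophil markers had 1 of 8 (S100a8, with a log2 value of 5.86 on every array) and an unchanging summed level of 146. Identical values on all 3 arrays were found for 41.4% of all probe sets, and whether neutrophil content was constant was not tested. Eosinophil markers had 1 of 3, mesothelial markers 1 of 4 and fibroblast markers 5 of 6. The summed level of the fibroblast markers was 2279 for intralipid plus ANGPTL4, 2288 for intralipid and 2304 for PBS. Their part in the chemokine values was not tested. In such bulk RNA, fewer cells of a type and less RNA per cell cannot be told apart.

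Intralipid was accompanied by higher levels of the neutrophil-attracting ligands Cxcl2 and Cxcl1 and of the receptors Ccrl2, Ccr1 and Cxcr1, and by a lower level of Cx3cr1. With ANGPTL4, Ccr1 and Cxcr1 lay within 1.18-fold of PBS, Cx3cr1 was 1.84-fold and Ccrl2 1.91-fold above it, and Cxcl2 was 12.1-fold above it (9.92-fold against the floor). Ccl5 was higher with ANGPTL4 and lay within 1.12-fold between intralipid alone and PBS. Cxcl3 reached the floor only with ANGPTL4, 1.37-fold above the floor of the intralipid array and 1.36-fold above that of PBS. Its difference between intralipid alone and PBS could not be measured.

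Counted over the genes at the floor on either array, 7 of 21 chemokine genes (33.3%) were at least 2-fold higher with intralipid than with PBS, against 2.51% of 10049 genes, and 1 of 21 (4.76%) was lower, against 1.32%. With ANGPTL4 against intralipid alone, 3 of 22 (13.6%) were higher, against 2.53% of 10064 genes, and 5 of 22 (22.7%) were lower, against 2.3%. With ANGPTL4 against PBS, 5 of 22 (22.7%) were higher, against 0.85% of 9995 genes, and 0 were lower, against 0.04%. The 5 were all ligands, Cxcl2, Ccl9, Ccl5, Cxcl3 and Cxcl16, and none of the 6 receptors at the floor was 2-fold apart from PBS on that array. This split depends on the threshold. At 1.5-fold, the receptors Ccrl2 (1.91-fold) and Cx3cr1 (1.84-fold) were also higher and Cxcr3 (1.52-fold) was lower. Beside a share of 0.85% over all genes, 0 of 6 does not set the receptors apart. The comparisons share arrays, so they do not bear on each other independently. In all, 11 genes were that far apart in 1 or more of them. Cxcl2, Cxcl3 and Ccl7 reached the floor only on arrays where they were higher, so these shares are descriptions.

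**Figure D1:**
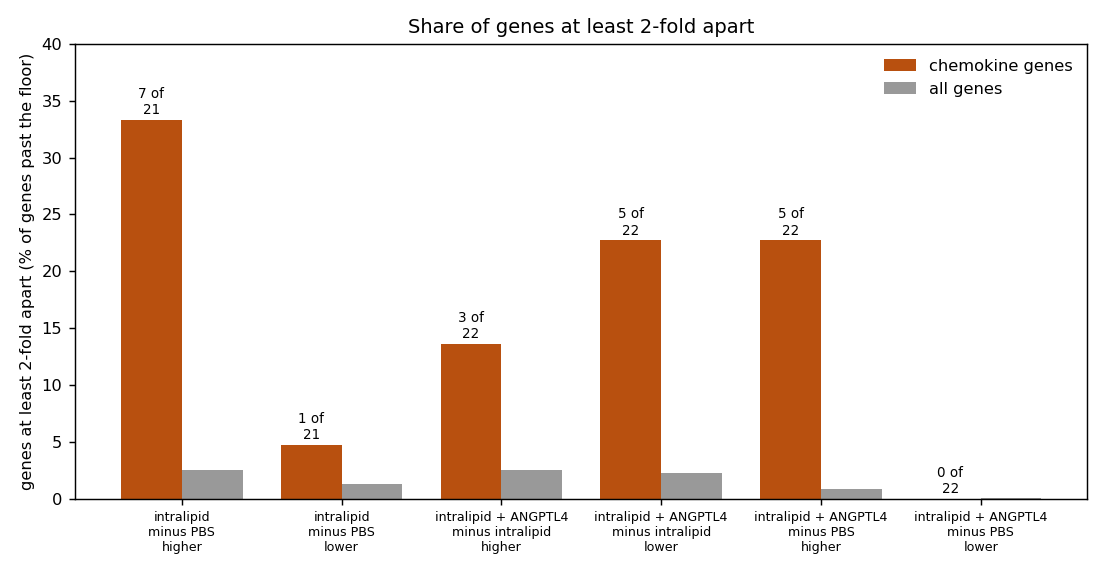
Percent of genes at the floor that were at least 2-fold higher or lower (y axis) in each comparison, for chemokine genes (left bars, with their counts) and all genes (right bars). The chemokine share is above that of all genes in 5 of the 6 groups of bars, most widely for genes higher with intralipid than with PBS (33.3% against 2.51%), and is 0 for genes lower with intralipid plus ANGPTL4 than with PBS.

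**Figure D2:**
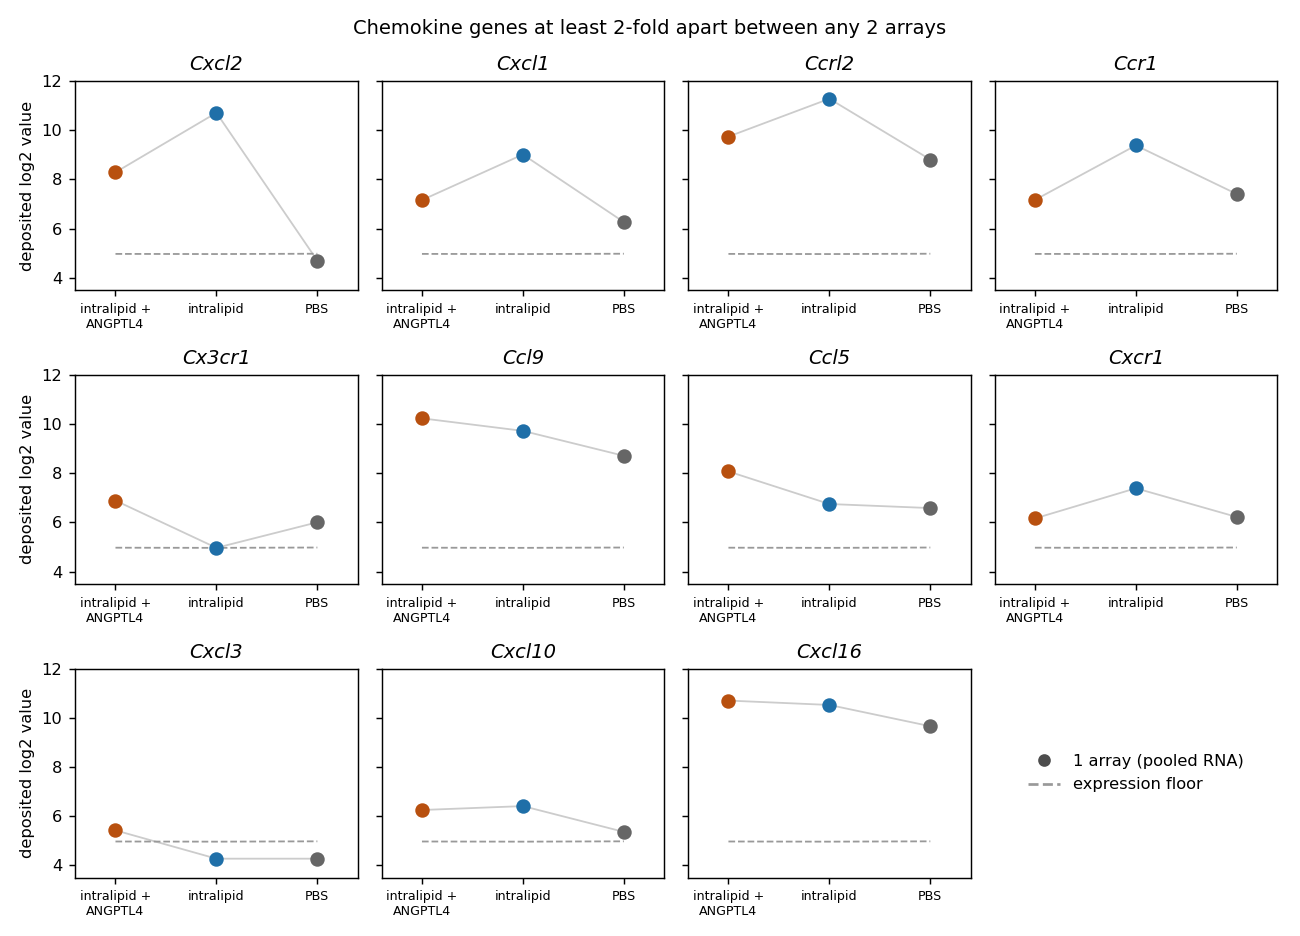
Deposited log2 values (y axis) of the 11 chemokine genes at least 2-fold apart between any 2 arrays. Each point is 1 array of pooled RNA, in the order intralipid plus ANGPTL4, intralipid and PBS, and the dashed line is the expression floor. Cxcl2, Cxcl1, Cxcl10, Ccrl2, Ccr1 and Cxcr1 peak on the intralipid array, Cx3cr1 has its lowest point there, and Ccl5, Ccl9, Cxcl3 and Cxcl16 are highest on the intralipid plus ANGPTL4 array.

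The CXCR2 ligands held the widest differences. Cxcl2 (probe set 10523156) had log2 values of 8.29 with intralipid plus ANGPTL4, 10.71 with intralipid and 4.70 with PBS. It lay below the floor with PBS only, and its 64.6-fold difference between intralipid and PBS was 53.1-fold when taken against the floor. It was 5.35-fold lower with ANGPTL4 than on the intralipid array and 12.1-fold higher than with PBS (9.92-fold against the floor). Cxcl1, whose product acts on the same receptor, had log2 values of 7.16 with intralipid plus ANGPTL4, 9.01 with intralipid and 6.27 with PBS. It was 6.71-fold higher with intralipid than with PBS and 3.61-fold lower when ANGPTL4 was added to intralipid, and its level with ANGPTL4 was 1.86-fold above PBS. Both genes were thus highest with intralipid and intermediate with ANGPTL4.

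Cxcl3, their close relative, had another order. Its log2 value was 5.43 with intralipid plus ANGPTL4, against 4.27 with intralipid and 4.27 with PBS. The last 2 values lie below the floor and were shared, to 6 decimal places, by 166 and 168 other probe sets of the same arrays. The 2.22-fold difference between ANGPTL4 and either other array was 1.37-fold and 1.36-fold against the floor of the intralipid and PBS arrays. Cxcl5, a CXCR2 ligand of the same gene cluster, had the same value of 3.00 on all arrays, below the floor. Transcripts of such close relatives can share probes, and which probes do so here was not tested.

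Because Cxcl2, Cxcl1 and Ccrl2 were among the genes furthest apart and Cxcl3 is their relative with another pattern, their upstream sequences are shown. Ccr1 follows as the gene next in size of difference. RefSeq promoters (build GRCm38.p6, 250 bases before to 50 after an annotated start) were matched by symbol for 42 of the 56 genes, in 46 windows, and for 17 of the 22 genes at the floor. The 160 bases before the start are printed 5′ to 3′ on the gene's strand. Capitals mark matches on either strand to GGAANNNCC, a sequence of the kind bound by NF-kappaB, the transcription factor of many inflammatory genes. The lines give Cxcl2 at chr5:90903739-90903898 (+), Cxcl1 at chr5:90891085-90891244 (+), Cxcl3 at chr5:90785941-90786100 (+), Ccrl2 at chr9:111057519-111057678 (-) and Ccr1 at chr9:123968693-123968852 (-).
Cxcl2: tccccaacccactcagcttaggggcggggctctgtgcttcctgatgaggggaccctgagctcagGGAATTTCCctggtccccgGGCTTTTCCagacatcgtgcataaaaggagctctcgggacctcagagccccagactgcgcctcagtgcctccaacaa
Cxcl1: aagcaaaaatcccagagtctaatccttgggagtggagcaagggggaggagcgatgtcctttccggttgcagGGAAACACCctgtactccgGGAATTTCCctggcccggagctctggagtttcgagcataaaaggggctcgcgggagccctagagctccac
Cxcl3: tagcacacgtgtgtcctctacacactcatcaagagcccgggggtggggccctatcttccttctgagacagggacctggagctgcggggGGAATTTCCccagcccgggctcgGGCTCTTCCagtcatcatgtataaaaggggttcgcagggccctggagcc
Ccrl2: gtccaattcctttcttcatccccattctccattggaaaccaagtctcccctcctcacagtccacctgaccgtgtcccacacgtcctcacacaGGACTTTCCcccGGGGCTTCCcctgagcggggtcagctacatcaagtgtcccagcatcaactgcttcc
Ccr1: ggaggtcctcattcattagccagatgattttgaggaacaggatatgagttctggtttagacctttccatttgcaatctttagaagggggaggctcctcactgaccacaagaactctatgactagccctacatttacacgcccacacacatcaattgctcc

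The windows of Cxcl2, Cxcl1, Cxcl3 and Ccrl2 each held a pair of matches in the 160 bases shown, and that of Ccr1 held none. They began at -96 and -77 from the start in Cxcl2, at -89 and -70 in Cxcl1, at -72 and -49 in Cxcl3 and at -68 and -56 in Ccrl2. For Ccrl2, RefSeq lists 3 starts, and only the window printed here held a match. It was chosen for printing because of that match, so its pair is not a finding about Ccrl2 as a whole. GGAANNNCC occurred in 17 of the 46 windows (37%) and in 18.5% of 32851 promoters of the same length. It was in 7 of the 20 windows of genes at the floor, a share like that of all 46. The stricter form GGANTTTCC, each match of which is also a match to the first, occurred in 6 of the 46 windows (13%) and in 1.25% of all promoters. Of those 6 windows, 5 belong to genes at the floor, namely Cxcl1, Cxcl2, Cxcl3, Cxcl10 and Ccrl2, and 1 to Ccr3, which lay below it. The exact run GGAATTTCC, noticed in the printed sequences and then counted, was present in Cxcl1, Cxcl2, Cxcl3, Cxcl10 and Ccr3 and in 0.317% of all promoters. The AP-1 motif TGANTCA occurred in 6 of the 46 windows (13%, against 7.81%), the interferon-response-like motif GAAANNGAA in 8 (17.4%, against 8.56%), the TATA motif TATAAA in 13 (28.3%, against 13.6%) and the cyclic AMP response motif TGACGTCA in 0 (against 1.79%). A match is a description of letters, and binding was not measured.

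**Figure D3:**
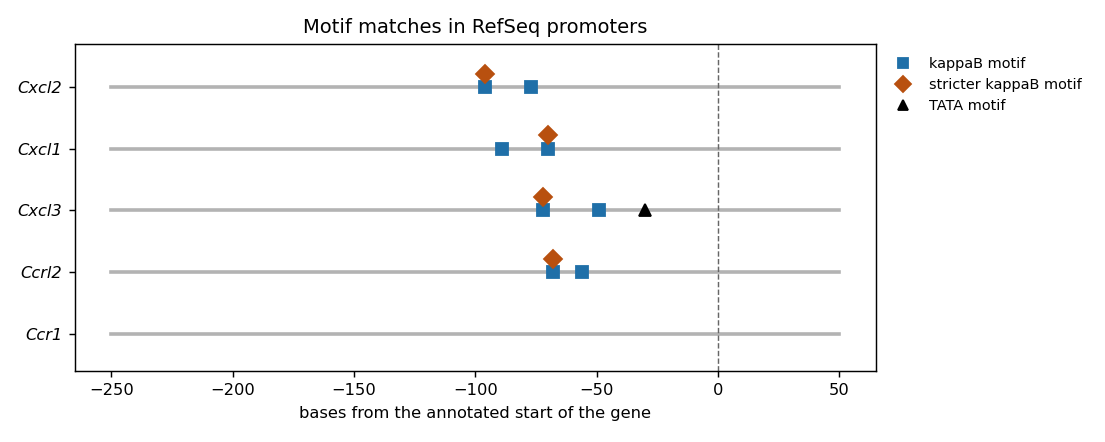
Positions of motif matches (first base, x axis, in bases from the annotated start) in the RefSeq promoter windows of Cxcl2, Cxcl1, Cxcl3, Ccrl2 and Ccr1. Squares are GGAANNNCC, diamonds GGANTTTCC and the triangle TATAAA. Cxcl2, Cxcl1, Cxcl3 and Ccrl2 have 2 squares and 1 diamond each, all before the start, and Ccr1 has none. The Ccrl2 window is the only one of its listed starts with a GGAANNNCC match and was chosen for that.

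The other CXC ligands differed less. Cxcl10, an interferon-inducible ligand of CXCR3, had log2 values of 6.25 with intralipid plus ANGPTL4, 6.41 with intralipid and 5.36 with PBS. It was 2.07-fold higher with intralipid than with PBS and 1.12-fold lower with ANGPTL4 than on the intralipid array. The other CXCR3 ligands, Cxcl9 and Cxcl11, stayed below the floor on all 3 arrays. Cxcl16, a membrane-bound ligand of CXCR6 that is also a scavenger receptor, had log2 values of 10.70 with intralipid plus ANGPTL4, 10.52 with intralipid and 9.66 with PBS. It was 1.82-fold above PBS with intralipid and 2.06-fold with ANGPTL4, so both lipid-exposed arrays lay above PBS and within 1.13-fold of each other. The B-cell attractant Cxcl13 (6.60, 6.37 and 6.25 for intralipid plus ANGPTL4, intralipid and PBS), Cxcl14 (8.64, 8.43 and 8.43) and the stromal ligand Cxcl12 (5.39, 5.25 and 5.39) lay within 1.28-fold in each comparison.

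Among the CC ligands, Ccl9 and Ccl5 were more than 2-fold above PBS with ANGPTL4, and only Ccl5 was also 2-fold above intralipid alone. Ccl9, a mouse ligand of CCR1, had log2 values of 10.23 with intralipid plus ANGPTL4, 9.72 with intralipid and 8.71 with PBS. It was 2.02-fold above PBS with intralipid, and this difference of 1.01 on the log2 scale became 0.98, short of 2-fold, when arrays were centred on their medians. With ANGPTL4 it was 2.87-fold above PBS and 1.42-fold above intralipid alone. Ccl5, which attracts T cells and monocytes, had log2 values of 8.07 with intralipid plus ANGPTL4, 6.75 with intralipid and 6.58 with PBS. It was 2.50-fold higher when ANGPTL4 was added to intralipid and 2.81-fold higher than with PBS, while intralipid and PBS lay within 1.12-fold. Unlike Cxcl2 and Cxcl1, neither gene was lower with ANGPTL4 than on the intralipid array.

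The remaining CC ligands at the floor stayed short of 2-fold in all comparisons. Ccl3, which encodes MIP-1 alpha, had log2 values of 10.47 with intralipid plus ANGPTL4, 9.91 with intralipid and 9.85 with PBS, an order like that of Ccl5. Ccl4, which encodes the related MIP-1 beta, had 5.76, 6.16 and 5.42 on the same arrays and was highest with intralipid. The RefSeq annotations of Ccl3 and Ccl4 overlap, and whether their probes do was not tested. The CCR2 ligands Ccl2, which encodes MCP-1, and Ccl7 were also highest with intralipid. Ccl2 had log2 values of 5.46 with intralipid plus ANGPTL4, 5.94 with intralipid and 5.06 with PBS, and Ccl7 had 5.29, 5.56 and 4.97, the last just below the floor. Ccl6, a mouse ligand of CCR1, had 10.24, 10.83 and 10.20, so that ANGPTL4 and PBS lay within 1.03-fold. Ccl25, a ligand of CCR9, stayed between 5.06 and 5.29, and the other probe set of this gene had 5.08 on all arrays.

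Among the receptors, Ccrl2, an atypical receptor that binds chemerin and is induced in activated macrophages, had log2 values of 9.74 with intralipid plus ANGPTL4, 11.28 with intralipid and 8.81 with PBS. It was 5.55-fold higher with intralipid than with PBS and 2.90-fold lower when ANGPTL4 was added to intralipid, and its level with ANGPTL4 was 1.91-fold above PBS. Ccr1, a receptor for Ccl3, Ccl5, Ccl6 and Ccl9, had log2 values of 7.17 with intralipid plus ANGPTL4, 9.38 with intralipid and 7.41 with PBS. It was 3.94-fold higher with intralipid than with PBS and 4.65-fold lower with ANGPTL4 than on the intralipid array, which left it 1.18-fold below PBS. Its level and those of its ligands thus did not share 1 order across the arrays: Ccl6 was highest with intralipid as Ccr1 was, and Ccl3, Ccl5 and Ccl9 were highest with ANGPTL4.

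Cxcr1, a receptor for CXC ligands on neutrophils, had log2 values of 6.16 with intralipid plus ANGPTL4, 7.39 with intralipid and 6.22 with PBS. It was 2.25-fold higher with intralipid than with PBS and 2.34-fold lower when ANGPTL4 was added to intralipid. Its values with ANGPTL4 and with PBS were each shared by other probe sets (30 and 24), and the related Cxcr2 lay below the floor on all 3 arrays. S100a8, the neutrophil marker at the floor, had the same value on every array, as 41.4% of all probe sets did. The part of neutrophils in the Cxcr1 values was not tested. Cx3cr1, the fractalkine receptor of monocytes and macrophages, ran the other way, with 6.89 with intralipid plus ANGPTL4, 4.97 with intralipid and 6.01 with PBS. It was 2.05-fold lower with intralipid than with PBS and 3.79-fold higher with ANGPTL4 than on the intralipid array. Its intralipid value lay at the floor, and its PBS value was shared by 13 other probe sets. The gene of its ligand, Cx3cl1, was at 4.41 on all arrays, below the floor. Only 1 dendritic cell marker reached the floor, Clec9a, with log2 values of 3.32 with intralipid plus ANGPTL4, 5.00 with intralipid and 3.44 with PBS. The Clec9a value with intralipid lay just above that array's floor of 4.97. The other dendritic markers, Flt3, Zbtb46, Xcr1 and Cd209a, lay below the floor, and each kept an identical value on all 3 arrays. The summed level of the 5 dendritic markers was 81.8 with intralipid plus ANGPTL4, 104 with intralipid and 82.7 with PBS. The sum thus moved with Clec9a alone. The part of dendritic cells in the receptor values was not tested.

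Cxcr4, the receptor of Cxcl12, had log2 values of 11.95 with intralipid plus ANGPTL4, 12.54 with intralipid and 11.78 with PBS. It was 1.69-fold higher with intralipid than with PBS and 1.50-fold lower when ANGPTL4 was added to intralipid. Cxcr3, the receptor of Cxcl10, was at 5.49 on both lipid-exposed arrays, against 6.10 with PBS, a 1.52-fold difference, and the value of 5.49 was shared by 45 and 41 other probe sets. Ccr2, the monocyte receptor for Ccl2 and Ccl7, lay at 3.07 with intralipid plus ANGPTL4, 3.02 with intralipid and 3.07 with PBS, below the floor.

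The median log2 difference of the 22 genes at the floor was 0.68 for intralipid minus PBS, -0.14 for intralipid plus ANGPTL4 minus intralipid and 0.38 for intralipid plus ANGPTL4 minus PBS, while the median of all 10090 genes at the floor was 0.00 in each. For the 16 ligands the medians were 0.61, 0.01 and 0.51, and for the 6 receptors 0.96, -0.91 and 0.05. Of the 22 genes, 12 were highest on the intralipid array, 8 on the intralipid plus ANGPTL4 array and 1 (Cxcr3) on the PBS array, and Cxcl12 had equal values with intralipid plus ANGPTL4 and PBS. Over all genes at the floor, 18.2% were highest with intralipid, 25.8% with intralipid plus ANGPTL4 and 14.7% with PBS. The other 41.3% were tied, against Cxcl12 alone among the 22, so these shares and the counts of the 22 are not directly comparable. Over all genes at the floor, those with identical values included, the robust SD of the differences was 0.20, 0.23 and 0.10 in the same comparisons. Between intralipid and PBS, the differences of Ccl25 (0.23), Ccl5 (0.165), Cxcl12 (-0.14), Cxcl13 (0.11), Ccl3 (0.07) and Cxcl14 (0.00) are near this size or under it.

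**Figure D4:**
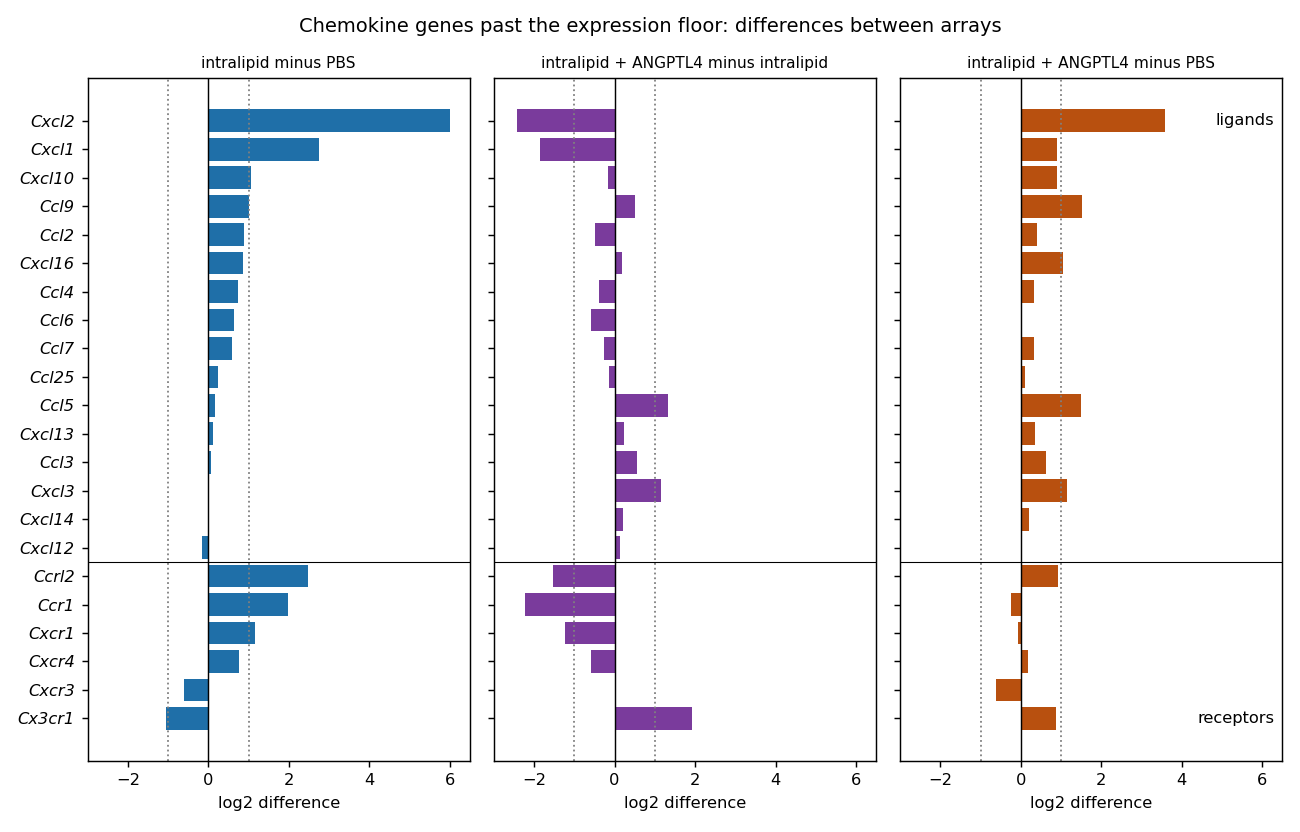
Log2 differences between arrays (x axis) for the 22 chemokine genes at the expression floor, ligands above the line and receptors below it. Panels show intralipid minus PBS, intralipid plus ANGPTL4 minus intralipid, and intralipid plus ANGPTL4 minus PBS, and dotted lines mark a 2-fold difference. In the panel of intralipid plus ANGPTL4 minus PBS, 5 ligands and no receptor pass the right dotted line. The receptors Ccrl2 (0.93) and Cx3cr1 (0.88) end just short of it.

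Chemokine genes lie in clusters, and neighbours shared an order of values across the arrays in some places and not in others. Only the 56 genes were ordered, so chemokine genes outside the symbol rule, such as Pf4 and Ppbp, were not placed. In RefSeq order, the genes so listed in the chromosome 5 cluster run Cxcl5, Cxcl3, Cxcl15, Cxcl1 and Cxcl2. The last 2, which are adjacent among these genes, were 2.75 and 6.01 above PBS with intralipid on the log2 scale (5.73 for Cxcl2 against the floor). The first 3 were below the floor on both of these arrays, so a difference between them could not be measured. In the chromosome 11 cluster of Ccl5, Ccl9, Ccl6, Ccl3 and Ccl4, all 5 genes reached the floor. Ccl5, Ccl9 and Ccl3 were highest with ANGPTL4, and Ccl6 and Ccl4 were highest with intralipid. In the cluster of Ccl2, Ccl7, Ccl11, Ccl12, Ccl8 and Ccl1 on the same chromosome, Ccl2 and Ccl7 reached the floor and the other 4 did not. Of the 6 receptor genes listed in the chromosome 9 cluster, only Ccr1 reached it.

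**Figure D5:**
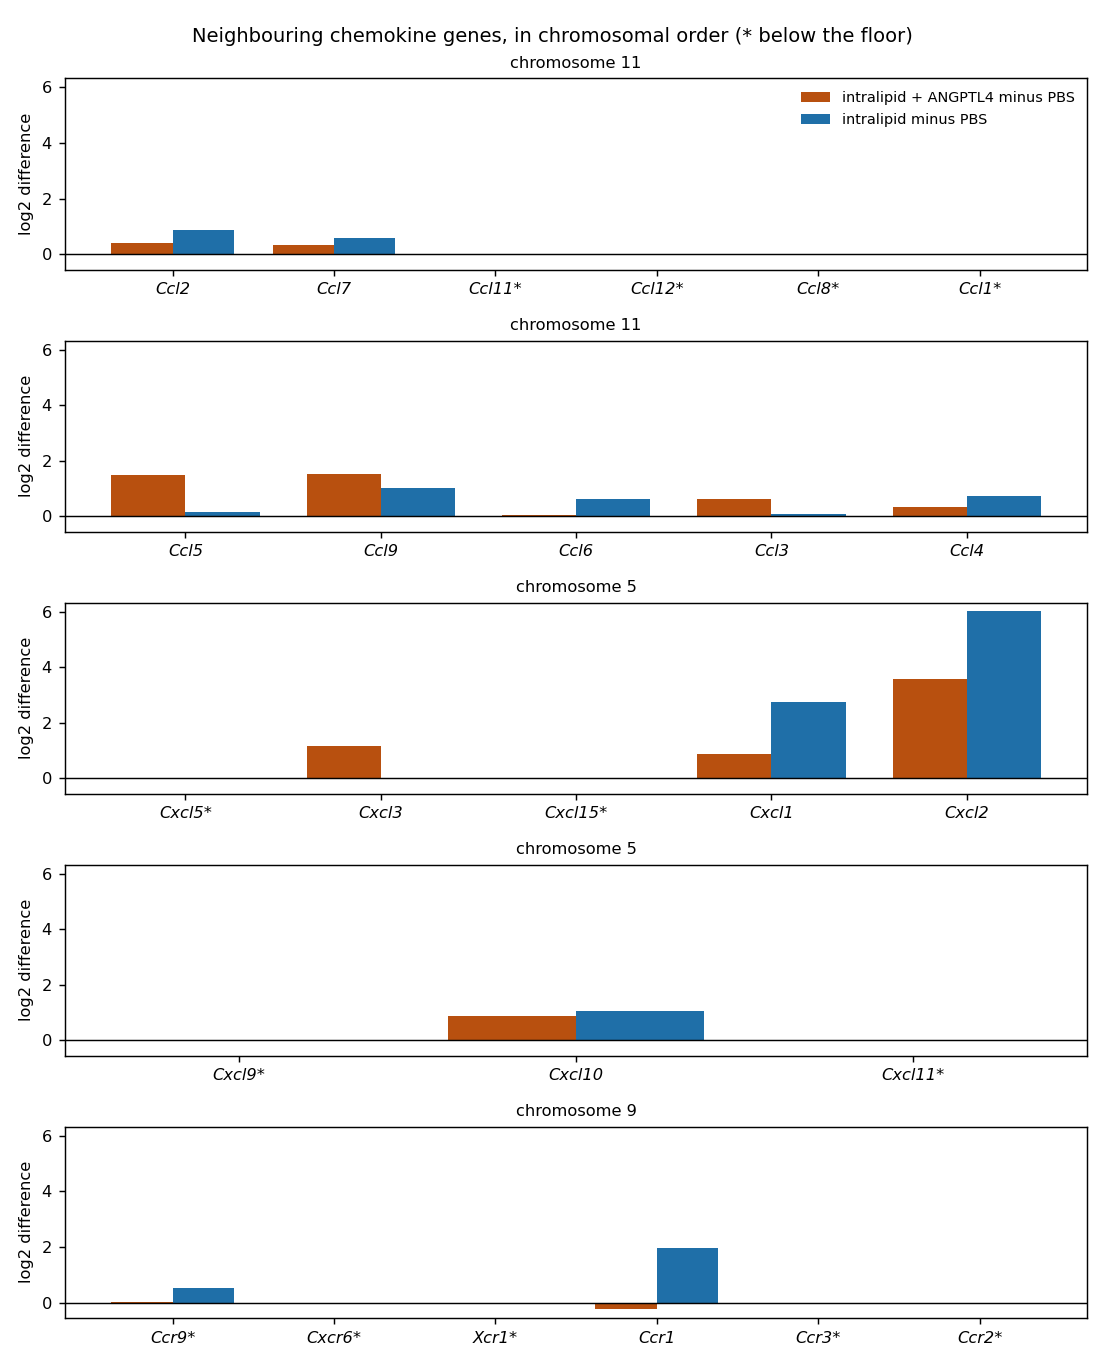
Log2 differences from PBS (y axis, the same in all panels) of neighbouring chemokine genes in RefSeq order, for clusters of at least 3 members with a gene at the floor. Chemokine genes outside the symbol rule are not shown. Left bars are intralipid plus ANGPTL4 and right bars intralipid. An asterisk marks a gene below the floor on all 3 arrays. The intralipid bars of Cxcl1 and Cxcl2 stand above those of the first 3 genes shown of their cluster. Those 3 were below the floor on the intralipid and PBS arrays, and Cxcl3 has a bar for intralipid plus ANGPTL4 only.

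The 34 genes below the floor on all 3 arrays were the CC ligands Ccl1, Ccl8, Ccl11, Ccl12, Ccl17, Ccl19, Ccl20, Ccl22, Ccl24, Ccl26 and Ccl28, the CXC ligands Cxcl5, Cxcl9, Cxcl11, Cxcl15 and Cxcl17, and the ligands Cx3cl1 and Xcl1. The receptors below it were Ccr2, Ccr3, Ccr4, Ccr6, Ccr7, Ccr8, Ccr9, Ccr10, Cxcr2, Cxcr5, Cxcr6, Xcr1, Ackr1, Ackr2, Ackr3 and Ackr4. Of these 34, 24 had 1 identical value on all arrays, 27 shared a value with at least 10 other probe sets, and the widest difference was 0.52 on the log2 scale (Ccr9, intralipid minus PBS). Such sharing was not confined to low genes. Among the 22 genes at the floor, 8 shared a value on 1 or more arrays with at least 10 others: Ccl2, Ccl4, Cxcl3, Cxcl10, Cxcl12, Cx3cr1, Cxcr1 and Cxcr3. Cxcl17 came nearest to the floor, its highest value lying 0.17 below it, and by the same measure Ccl25 was the gene just above it. Both ligands of CCR4 (Ccl17 and Ccl22) and the CCR3 ligands Ccl11 and Ccl24, which accompany type 2 responses, were among them. Probe sets that carry several symbols, 7 with Ccl21 or Ccl27 genes, were left out, and none was 2-fold apart between arrays. The platelet-type chemokines outside the symbol rule, Pf4 and Ppbp, had 8.17 on all arrays and a value below the floor.

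Other genes of the system were counted in lists by role, over the genes at the floor. Over all genes, 2.51% were 2-fold higher and 1.32% lower with intralipid than with PBS, and 2.53% were higher and 2.3% lower with ANGPTL4 against intralipid alone. Of 23 genes of chemokine receptor signalling, 0 differed 2-fold from PBS with intralipid, and 3 were higher with ANGPTL4 than on the intralipid array: Pik3cg, the catalytic subunit of PI3-kinase gamma (2.97-fold), the exchange factor Vav1 (2.72-fold) and beta-arrestin 1, Arrb1 (2.07-fold). Of 7 other chemoattractant receptors, only Cmklr1, a receptor for chemerin as Ccrl2 is, passed 2-fold. It had log2 values of 8.73 with intralipid plus ANGPTL4, 6.58 with intralipid and 7.81 with PBS. It was thus lowest with intralipid, where Ccrl2 was highest, and with ANGPTL4 both genes lay above PBS. Of 12 proteases that cut or shed chemokines, Adam17, a sheddase of membrane-bound chemokines (2.97-fold), and Mmp14 (2.94-fold) were higher when ANGPTL4 was added to intralipid and 0 were 2-fold apart between intralipid and PBS. Of 10 RNA-binding factors listed for message decay, Zfp36 and Zc3h12a were 2.74-fold and 2.75-fold higher with intralipid than with PBS. Both promote decay of cytokine messages. Zfp36 was 2.71-fold lower with ANGPTL4 than on the intralipid array.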

How the data were processed

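The authors deposited 1 log2 expression value per probe set and array, made with RMA, which corrects background, normalizes arrays together and summarizes probes, per the submitters' processing notes. The RMA version, chip definition, filters and genome build were not given in the sources used here. Each array carried 100 ng of RNA pooled from 3 samples. Of 35556 probe sets, 21789 had 1 gene symbol, and each gene was represented by its probe set of highest mean. Values were used as deposited. Genes were named with their values where at least 2-fold apart and at the floor, and the other genes at the floor were grouped by role. The members and lists were chosen with earlier results of these data known. With 1 array per group, the number of arrays limits the precision. Alternatives tried were a 1.5-fold or 3-fold threshold, a floor at the 75th percentile or none at all, centring, quantile normalization and cyclic loess (limma 3.58.1 in R), other rules for probe sets, and the mean of the list. Counting was tested on simulated data. All RefSeq matches used GRCm38.p6, and Python with pandas did the rest.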

Additional observations from a re-analysis of the deposited data

How the results depend on the processing

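No paired analysis was possible because each group has 1 array. The log2 differences of the 11 named genes were recomputed under 3 scalings and with the mean over probe sets. Of the 132 values, 0 moved by more than the robust SD over genes, and no difference of 2-fold or more changed sign. Each of these genes has 1 probe set, so the mean over probe sets could not change its values. Centring shifts every gene by the same amount, less than the robust SD. Only quantile normalization and cyclic loess could thus have moved single genes that far. The widest shift of all genes' median under a scaling was -0.04. Counts depend on the threshold. At 1.5-fold, 13 genes were higher and 2 lower for intralipid minus PBS, and 10 were higher and 1 lower for intralipid plus ANGPTL4 minus PBS. At 3-fold, 4 were higher and 0 lower for intralipid minus PBS, 1 was higher and 3 were lower for intralipid plus ANGPTL4 minus intralipid, and 1 was higher for intralipid plus ANGPTL4 minus PBS. With the floor at the 75th percentile, fewer genes were counted, and Cx3cr1, Cxcl10 and Cxcl3 fell out: 0 were lower for intralipid minus PBS, and 1 was higher for intralipid plus ANGPTL4 minus intralipid. The medians with that floor were 0.94 for intralipid minus PBS, -0.59 for intralipid plus ANGPTL4 minus intralipid and 0.76 for intralipid plus ANGPTL4 minus PBS. Without a floor, which adds the unvarying low genes, the first and last were 0.00, and the mean in place of the median gave 0.90 and 0.64. Signal over background limits Cxcl2 with PBS, Cx3cr1 with intralipid and Cxcl3.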
